A study of Mus musculus with 6 samples.

Results

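The S100 and annexin transcripts described here are those of 10 genes, S100a1, S100a4, S100a6, S100a10, S100a11, Anxa1, Anxa2, Anxa3, Anxa4 and Anxa5. They were chosen by gene symbol, and all 10 were found among the 15443 gene symbols measured. RNA came from bone marrow cells of C57BL/6J mice of wild-type genotype, whose age is not given in the sources used here. All cells were grown with the dendritic cell growth factor FLT3LG at 50 ng/ml for 3 days. The 3 control libraries (replicates 1, 2 and 4) had nothing more added, and the 3 midkine libraries (replicates 3, 4 and 5) also had recombinant human midkine, a heparin-binding growth factor, at 10 ng/ml. The culture is a mixture of marrow-derived cells with no sorting given, so a lower transcript level can mean fewer cells of a type or less RNA per cell, and these cannot be told apart. Nothing in the labels says that replicates are separate mice or cultures, so p-values speak only of the spread between these libraries, which may be technical.

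S100 proteins are small calcium sensors that pair up, bind calcium through helix-loop-helix motifs called EF-hands, and then grip partner proteins. Annexins are larger proteins that bind negatively charged membranes when calcium rises, and several of them are tethered to an S100 dimer through their N-terminal tail. Together they serve membrane repair, secretion, cell movement and the control of inflammation, and both families are abundant in monocytes, macrophages and neutrophils. The calprotectin genes S100a8 and S100a9, whose products fill the cytosol of neutrophils, are not among the 10.

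The 5 S100 genes lie in a pair of groups on chromosome 3 of GRCm38. S100a1 (90511034 to 90514392, minus strand), S100a4 (90603771 to 90606045, plus strand) and S100a6 (90612882 to 90624181, plus strand) belong to the main S100 cluster, and 6836 bases separate S100a4 from S100a6. Between S100a4 and S100a6 lies S100a5, which was not measured. S100a11 (93520488 to 93526287) and S100a10 (93555080 to 93564643), both on the plus strand, lie 2896306 bases further on and are 28792 bases apart from each other. The annexin genes are scattered: Anxa5 is on chromosome 3 (36448923 to 36475894, minus strand), Anxa3 on chromosome 5 (96793339 to 96845966, plus), Anxa4 on chromosome 6 (86736840 to 86793584, minus), Anxa2 on chromosome 9 (69453620 to 69491795, plus) and Anxa1 on chromosome 19 (20373428 to 20390944, minus). In GENCODE M21 all 10 are protein-coding. Within the last 300 bases of the gene, where this 3′ method reads, S100a4 overlaps Gm42674 on the same strand and Anxa4 overlaps Gm44036 on the other, so reads there cannot be assigned with certainty. S100a11 has an annotated pseudogene copy, S100a11-ps, with which it could share reads.

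Promoter sequences are shown for the nearby genes S100a4 and S100a6, whose values went different ways between libraries, and for S100a11 and Anxa2, which differed likewise and held AP-1 matches. They are the bases before the gene start on the gene's own strand, 5′ to 3′, from RefSeq on GRCm38.p6, cut where the GENCODE gene begins. Capitals mark matches to the AP-1 site TGANTCA, the E-box CACGTG and the TATA box motif TATAAA. These were searched on both strands, together with an NF-kB site.
S100a4, chr3:90603520-90603769, plus strand: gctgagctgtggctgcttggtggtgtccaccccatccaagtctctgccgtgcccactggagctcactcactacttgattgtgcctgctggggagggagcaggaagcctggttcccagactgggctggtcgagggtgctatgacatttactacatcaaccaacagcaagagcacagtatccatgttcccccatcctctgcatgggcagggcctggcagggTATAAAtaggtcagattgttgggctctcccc
S100a6, chr3:90612644-90612881, plus strand: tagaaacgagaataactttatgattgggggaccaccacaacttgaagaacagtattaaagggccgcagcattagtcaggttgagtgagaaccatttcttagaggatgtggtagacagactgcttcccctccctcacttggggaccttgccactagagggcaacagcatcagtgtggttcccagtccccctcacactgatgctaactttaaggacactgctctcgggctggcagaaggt
S100a11, chr3:93520246-93520487, plus strand: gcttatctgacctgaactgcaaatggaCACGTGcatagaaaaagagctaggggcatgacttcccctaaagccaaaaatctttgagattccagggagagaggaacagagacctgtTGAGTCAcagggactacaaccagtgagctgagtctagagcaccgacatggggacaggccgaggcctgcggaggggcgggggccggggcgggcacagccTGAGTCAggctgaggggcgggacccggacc
Anxa2, chr9:69453433-69453619, plus strand: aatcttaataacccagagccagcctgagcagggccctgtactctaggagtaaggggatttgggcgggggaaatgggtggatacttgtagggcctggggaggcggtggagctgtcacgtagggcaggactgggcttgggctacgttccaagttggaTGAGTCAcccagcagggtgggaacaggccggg
S100a11 held 2 AP-1 matches, beginning 136 and 38 bases before the RefSeq start, and an E-box match 223 bases before it. Anxa2 held 1 AP-1 match 95 bases before the start, and S100a4 a TATA box match 31 bases before it. A TATA box match of Anxa2, 17 bases before the RefSeq start, lies beyond the run shown, and Anxa1 held one 32 bases before its start. S100a6 held a match to none of the 4 motifs. Among 32851 RefSeq promoter windows of 250 bases, 6.75% held the AP-1 letters, 6.02% the E-box letters, 12.4% the TATA box letters and 0.356% the NF-kB site. Of the 8 members with a RefSeq window, Anxa4 was the one with an NF-kB match, 55 bases before its start. S100a10 and Anxa3 had no window. These matches describe letters, not bound sites.

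Each library held 5985684 to 7233960 reads. The library midkine 5 stood apart from the rest: its score on the first principal component, which carried 57.1% of the variance, was 86.0, against -28.2 to 1.94 elsewhere. Mitochondrial ribosomal RNA made up 0.377% of its reads and 4.12 to 6.16% of those of the other 5. The fold changes of the 10 members are therefore given with and without midkine 5.

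In the control cultures, S100a4 had the highest level of the 10, followed by S100a6 and Anxa2. The 3′ library method yields about 1 read per transcript whatever its length, so normalized counts of different genes can be set side by side. S100a4, known for binding nonmuscle myosin and for its association with cell motility, had 5351 ± 833 normalized counts (mean ± SD over 3 libraries, as for all group values) and ranked 94 of 15443 genes by its mean over all 6 libraries. S100a6 (calcyclin), which binds annexins and the ubiquitin-ligase adaptor CACYBP, had 3859 ± 479, and Anxa2 had 3469.6 ± 159.6. S100a11, a partner of Anxa1, had 2236 ± 255, and Anxa5 had 1362 ± 48.9. The other 5 were lower, at 612 ± 50.9 for S100a10, 506 ± 47.6 for S100a1, 503 ± 28.0 for Anxa3, 447 ± 43.6 for Anxa1 and 416 ± 24.7 for Anxa4. Control ranges of neighbours in this order overlapped for S100a6 and Anxa2, for S100a1 and Anxa3, for Anxa3 and Anxa1, and for Anxa1 and Anxa4, and for no other neighbours. The control SD was 3.59% of the mean for Anxa5, where counting alone gives 2.73%, and 15.6% for S100a4, where counting gives 1.37%.

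The 5 S100 genes took 0.174 to 0.222% of reads in control libraries, 0.223 and 0.208% in midkine 3 and 4 and 0.304% in midkine 5 (Wilson 95% interval 0.3001 to 0.3081%). The 5 annexin genes took 0.0957 to 0.104% in control libraries and 0.127, 0.120 and 0.129% in midkine 3, 4 and 5. The summed annexin share was thus higher in each midkine library than in any control, while the summed S100 share overlapped between the groups. Anxa2 held 6157 of the 9312 annexin reads in midkine 5. By normalized counts, Anxa3 and Anxa4 were above every control there, Anxa1 was within the control range and Anxa5 below it. The summed share in midkine 5 thus does not stand for each annexin. The Wilson interval reflects the counting of reads alone. PCR copies were not collapsed as far as the labels say, so the interval may be too narrow.

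**Figure D1:**
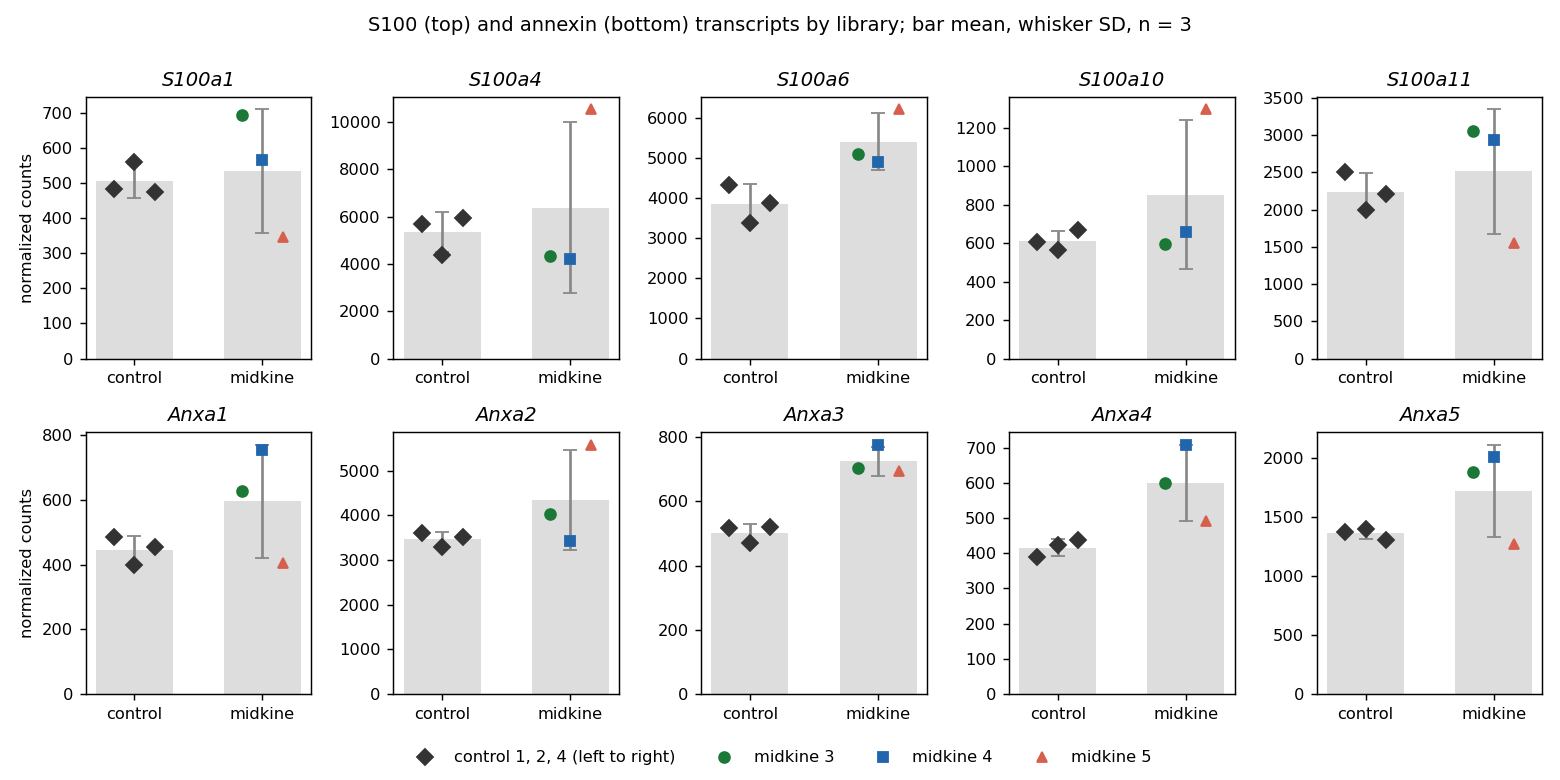
Normalized counts (vertical axis, from 0) of the 5 S100 genes (top row) and 5 annexin genes (bottom row) in each library; bars are group means, whiskers the SD over 3 libraries, and markers single libraries. Anxa3, Anxa4 and S100a6 were above every control in all 3 midkine libraries, while S100a4 and S100a10 were high in midkine 5 alone.

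No S100 or annexin member passed the test with all 6 libraries, where limma called 0% of 13543 genes in either direction (adjusted p under 0.05); 3 of the 10 had an unadjusted p under 0.05 and a higher value with midkine and 0 a lower one, beside 10.4% and 9.3% of all genes tested. edgeR on the whole reads called 0 members, beside 0.0443% of genes higher and 0.0295% lower. All 10 log2 fold changes were above 0, as were those of 6720 of the 13543 genes tested. The median of the 10 was 0.34, against -0.00 over all genes tested. S100a1 (0.02), S100a11 (0.11) and S100a4 (0.13) were nearest to 0 and turned negative under some other settings. The midkine values lay above every control value for 3 members, Anxa3, Anxa4 and S100a6, where 15.5% of all genes tested did so, and below every control for 0 members, where 15.3% of genes did. Without midkine 5, 6 of the 10 were higher and 0 lower (limma, adjusted p under 0.05). Of all genes tested, 9.92% were higher and 8.52% lower. In these 5 libraries, 7 members lay above every control and 1, S100a4, below, beside 23.8% of genes in each direction. The 6 higher in limma without midkine 5 were Anxa1, Anxa3, Anxa4, Anxa5, S100a6 and S100a11. Of these, Anxa5 and S100a11 lay below every control in midkine 5. edgeR on the whole reads of the same 5 libraries called 6 members higher and 0 lower, beside 10.5% and 7.97% of genes. limma with array weights, which gives each library a weight by its fit, called 6 higher and 1 lower over all 6 libraries, beside 19.1% and 18.4% of genes.

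Anxa3 and Anxa4 were higher in all midkine libraries. Anxa3, an annexin of neutrophils that promotes the fusion of granule membranes, had 517, 470.4 and 521 normalized counts in control 1, 2 and 4 and 703, 777 and 694 in midkine 3, 4 and 5. The groups did not overlap and midkine 5 was close to midkine 3. Its log2 fold change was 0.53 ± 0.139 (SE; limma, adjusted p = 0.121), and 0.56 ± 0.107 without midkine 5 (adjusted p = 0.00140). Anxa3 was the 1 member past the threshold with DESeq2 on all 6 libraries (log2 fold change 0.53, adjusted p = 0.0410), a tool that called 3.97% of genes higher and 1.95% lower.

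Anxa4, which binds membranes of secretory cells, had 389, 422 and 437 normalized counts in control libraries and 599, 709 and 492 in midkine libraries. Midkine 5 was nearest to the controls but above each of them. Its log2 fold change was 0.51 ± 0.172 (limma, adjusted p = 0.178), and 0.65 ± 0.113 without midkine 5 (adjusted p = 0.000682), the highest of the 10 in that fit.

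Anxa1 and Anxa5 were higher in midkine 3 and 4 and lay at or below the controls in midkine 5. Anxa1, a glucocorticoid-induced protein whose N-terminal peptide acts on formyl peptide receptors to limit inflammation, had 486, 399.9 and 454 normalized counts in control libraries and 627, 754 and 406 in midkine libraries. Midkine 3 and 4 were above each control, and midkine 5 was within the control range. The log2 fold change of Anxa1 was 0.37 ± 0.233 (limma, adjusted p = 0.394) and 0.63 ± 0.119 without midkine 5 (adjusted p = 0.00129).

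Anxa5, which binds phosphatidylserine and is used as a probe for dying cells, had 1377, 1402 and 1308 normalized counts in control libraries and 1884, 2008 and 1272 in midkine libraries. Its value in midkine 5 was the lowest of the 6. The log2 fold change of Anxa5 was 0.31 ± 0.192 (limma, adjusted p = 0.392) and 0.51 ± 0.0959 without midkine 5 (adjusted p = 0.00114). Of all member pairs, Anxa1 and Anxa5 had the most alike profiles, with a mean absolute difference of 0.09997 between their log2 values over the 6 libraries, each centred on its own mean. Anxa3 and Anxa4 came next, with 0.116.

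Anxa2 passed no test with or without midkine 5. Its product forms a tetramer with S100a10 that anchors plasminogen and its activators at the cell surface. Anxa2 had 3595, 3289.9 and 3524 normalized counts in control libraries and 4031, 3421 and 5589 in midkine libraries. Midkine 4 was within the control range and midkine 5 was the highest. The log2 fold change was 0.30 ± 0.196 (limma, adjusted p = 0.419; 95% interval -0.15 to 0.75), and 0.10 ± 0.103 without midkine 5 (adjusted p = 0.550; -0.12 to 0.32).

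**Figure D2:**
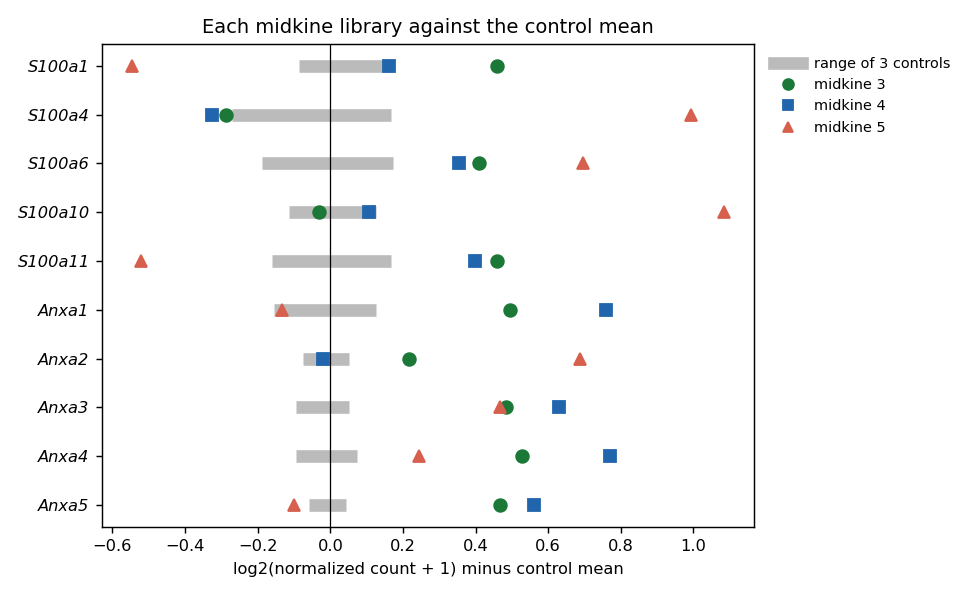
Difference of log2(normalized count + 1) from the control mean (horizontal axis) for each midkine library (markers) and each of the 10 genes; the grey band spans the 3 controls. Midkine 3 and 4 lie together for most genes, while midkine 5 lies on the other side of the controls for S100a1 (-0.55) and S100a11 (-0.52) and furthest to the right for S100a4 (0.99) and S100a10 (1.09).

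S100a6 was the S100 member that was higher in all midkine libraries. It had 4330.4, 3373 and 3875 normalized counts in control libraries and 5096, 4904 and 6216 in midkine libraries. No control reached the lowest midkine value. The log2 fold change of S100a6 was 0.49 ± 0.166 (limma, adjusted p = 0.183) and 0.38 ± 0.1103 without midkine 5 (adjusted p = 0.0221).

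S100a4, which lies near S100a6, was spread widely over the midkine libraries. It had 5699.6, 4399.5 and 5953 normalized counts in control libraries, 4346 and 4232 in midkine 3 and 4 and 10556 in midkine 5. Midkine 3 and 4 were just below the lowest control and midkine 5 was far above the highest. Its log2 fold change was 0.13 ± 0.342 (limma, adjusted p = 0.850) and turned to -0.31 ± 0.120 without midkine 5 (adjusted p = 0.0853). The ratio of S100a4 to S100a6 was 1.32, 1.30 and 1.54 in control libraries, 0.853 and 0.863 in midkine 3 and 4 and 1.70 in midkine 5. S100a6 thus exceeded S100a4 in midkine 3 and 4, and in those libraries alone.

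S100a10 and S100a11, the other nearby pair, also parted in midkine 5. S100a10, whose EF-hands no longer need calcium, had 605, 565 and 666 normalized counts in control libraries, 597 and 658 in midkine 3 and 4 and 1296 in midkine 5. The first 5 values overlapped between the groups. The log2 fold change of S100a10 was 0.39 ± 0.280 (limma, adjusted p = 0.455; 95% interval -0.26 to 1.03) and 0.04 ± 0.109 without midkine 5 (adjusted p = 0.851; -0.19 to 0.27).

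S100a11 had 2502, 1993 and 2214 normalized counts in control libraries, 3059.6 and 2933 in midkine 3 and 4 and 1550.3 in midkine 5. Midkine 3 and 4 were above each control and midkine 5 below each. Its log2 fold change was 0.11 ± 0.263 (limma, adjusted p = 0.828) and 0.43 ± 0.106 without midkine 5 (adjusted p = 0.00909). The ratio of S100a11 to S100a10 was 3.33 to 4.13 in control libraries, 5.12 and 4.46 in midkine 3 and 4 and 1.20 in midkine 5.

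For the complex of Anxa2 and S100a10, the ratio of S100a10 to Anxa2 was 0.168, 0.172 and 0.189 in control libraries and 0.148, 0.192 and 0.232 in midkine 3, 4 and 5. The groups overlapped. The ratio was highest in midkine 5, and only with that library was its range narrower than that of either gene's level. Without midkine 5 the ratio ran from 0.148 to 0.192. In proportion this was a wider range than that of S100a10 (565 to 666 normalized counts) or Anxa2 (3290 to 4031).

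S100a1, a regulator of calcium handling best known from heart muscle, had 482, 560.4 and 474 normalized counts in control libraries, 693 and 564 in midkine 3 and 4 and 345 in midkine 5. Midkine 4 lay just above the highest control, and midkine 5 was the lowest of all. Its log2 fold change was 0.02 ± 0.251 (limma, adjusted p = 0.963) and 0.31 ± 0.119 without midkine 5 (adjusted p = 0.0797).

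**Figure D3:**
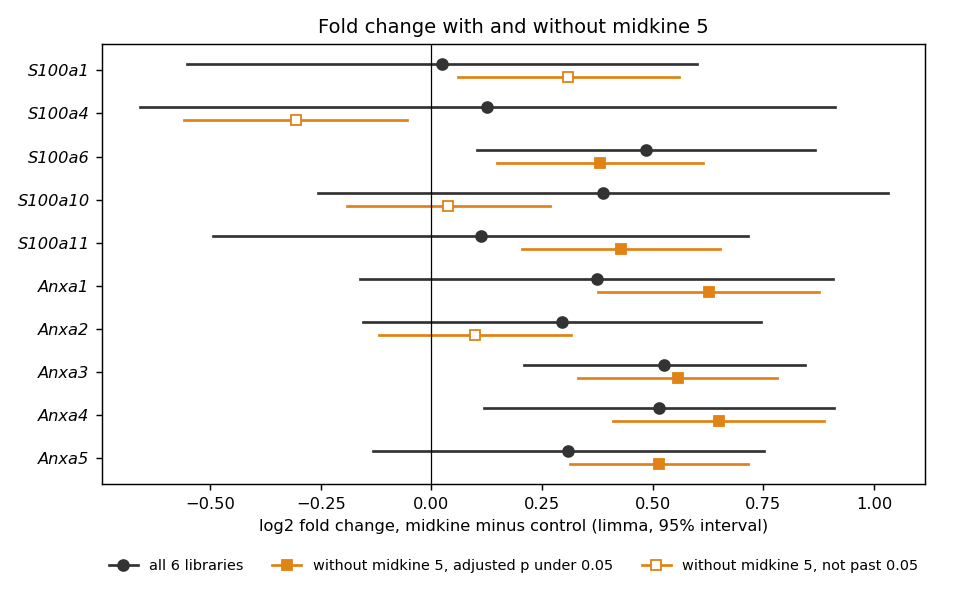
Log2 fold change, midkine minus control, with its 95% interval (limma) for each of the 10 genes, from all 6 libraries (circles) and without midkine 5 (squares; filled where adjusted p was under 0.05). The intervals are narrower without midkine 5 for each gene, 6 squares are filled, and S100a4 moves from 0.13 to -0.31.

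Marker transcripts of other cell types differed between the libraries as well. The summed level of 15 neutrophil markers, all measured and none at 0, was 128956 to 144256 normalized counts in control and 183777 to 197100 in midkine libraries. S100a8 and S100a9 made up 77.2 to 78.3% of that sum, and the 13 others summed to 27952 to 32784 in control and 40642 to 44461 in midkine libraries. Of the 15, 9 lay above every control in each midkine library, beside 15.5% of all genes tested. Ltf, Mmp8, Lcn2, Ly6g, Cxcr2 and Elane overlapped. The 14 monocyte and macrophage markers, all measured and none at 0, summed to 32967 to 42328 in control libraries, 54872 and 60510.3 in midkine 3 and 4 and 39346 in midkine 5. Apoe made up 41.2 to 56.5% of that sum, and the 13 others summed to 18937 to 20202 in control and 23122 to 26350.4 in midkine libraries. Of the 14, 7 lay above every control, and Ccr2 and Cx3cr1 lay below every control in each midkine library. The shares over all genes tested were 15.5% above and 15.3% below.

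The 10 conventional dendritic cell markers, all measured and above 0, summed to 4696 to 5269 in control and 2981 to 3956 in midkine libraries. Stroma and endothelium markers (11 measured, Lepr at 0 in 1 library or more) summed to 1553 to 2044 in control libraries, 977 and 999 in midkine 3 and 4 and 1835 in midkine 5. B cell markers (8, none at 0) summed to 2583 to 3447 in control libraries, 4858 and 4551 in midkine 3 and 4 and 2878 in midkine 5. Midkine 5 was thus the one midkine library within the control range of both sums. Without Pecam1, the most abundant stroma and endothelium marker, midkine 5 was below each control (802 against 883 to 1519). Midkine 3 and 4 then had 506 and 532. Without Ighm, the most abundant B cell marker, midkine 5 stayed within the control range (1357 against 1319 to 1853). Mast cell, basophil and eosinophil markers (8 of 9 measured, none at 0) summed to 977 to 1214 in control libraries, 2694 and 2728 in midkine 3 and 4 and 1782 in midkine 5. Megakaryocyte and platelet markers (7 measured, none at 0) summed to 6451 to 7328 in control libraries, 8977 and 8734 in midkine 3 and 4 and 13054 in midkine 5. Their most abundant marker was Pf4, and the 6 others overlapped between the groups (3484 to 4137 and 3958 to 4798). Plasmacytoid dendritic cell markers (8, Klk1 at 0 in 1 library or more) summed to 5304 to 5809.8 in control libraries and 4942, 4845 and 4901 in midkine 3, 4 and 5. Without Tcf4, their most abundant marker, the sums were 3189 to 3336 in control libraries, 3070.2 and 3037 in midkine 3 and 4 and 3552 in midkine 5. The lowest lists were T and NK cell markers (4 of 8 measured) and erythroid markers (4 of 8, none at 0). Klrb1c was at 0 in 1 library or more. T and NK cell markers summed to 109 to 131 in control libraries, 164 and 187 in midkine 3 and 4 and 76.2 in midkine 5. Erythroid markers summed to 45.1 to 77.9 in control and 110 to 176 in midkine libraries. Without Hbb-bs, their most abundant marker, the erythroid sums overlapped (31.8 to 55.2 and 55.1 to 96.1). The part of any of these in the S100 and annexin values was not tested.

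Among the remaining annexins, 4 of 7 were measured, of which 2 lay above and 1 below the controls in every midkine library, beside 15.5% and 15.3% of all genes. Anxa6, an annexin with a doubled core that organises cholesterol and membrane traffic, had 975, 900 and 821 normalized counts in control and 709.6, 579.5 and 521 in midkine libraries. It lay below the controls in each midkine library. Its log2 fold change was -0.58 ± 0.165 (limma, adjusted p = 0.137) and -0.48 ± 0.114 without midkine 5 (adjusted p = 0.00666). Anxa7 had 221, 211 and 186 in control and 277, 303 and 488 in midkine libraries, with a log2 fold change of 0.75 (limma, adjusted p = 0.153; 0.50 and 0.0115 without midkine 5). Anxa9 was low, at 15.3 to 17.8 in control and 25.3 to 30.0 in midkine libraries. Anxa11 had 299 to 329 in control libraries, 461 and 337 in midkine 3 and 4 and 169.7 in midkine 5, the same order as S100a11.

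Of 11 other S100 genes, 6 were measured and 4 passed the filter on low values. S100a9 rose without midkine 5 (log2 fold change 0.66, limma, adjusted p = 0.00261), and its log2 fold change with all 6 libraries was 0.67 (adjusted p = 0.109). S100a13, which begins 42 bases from S100a1 and is read from the other strand, had 195 to 272 normalized counts in control libraries, 227 and 245 in midkine 3 and 4 and 402 in midkine 5. In midkine 5, S100a13 was thus at its highest and S100a1 at its lowest.

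Genes of plasminogen activation at the cell surface, the system that Anxa2 and S100a10 serve, had 9 genes tested. Without midkine 5, 3 of the 9 rose (Plau, Plaur and Plgrkt) and 2 fell, Eno1 among them (limma, adjusted p under 0.05), beside 9.92% and 8.52% of all genes. Plau, the urokinase plasminogen activator, had 85.1, 67.5 and 87.8 normalized counts in control and 155, 224 and 355 in midkine libraries (log2 fold change 1.52 ± 0.295, limma, adjusted p = 0.0788; 1.21 and 0.000212 without midkine 5). Its receptor Plaur had 73.0 to 121 and 129 to 174, and the plasminogen receptor Plgrkt had 140.5 to 152 and 204 to 251. All 3, named for their small p in these same libraries, lay above the controls in each midkine library. Of the 9 tested, these 3 lay above and 1 below, beside 15.5% and 15.3% of all genes. Eno1, a glycolytic enzyme that also binds plasminogen and has near-identical copies that could share its reads, had 259.8 to 323 and 153 to 191.

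Among annexin and S100 receptors, 2 of 7 tested rose without midkine 5 (Tlr4 and Cd36) and 0 fell, beside the same 9.92% and 8.52% of all genes, which also stand beside the other list counts of this paragraph. Tlr4, which is a receptor for calprotectin, had 68.1 to 81.0 normalized counts in control and 110.2 to 136 in midkine libraries. Fpr1, a formyl peptide receptor, had 78.7 to 125 in control libraries, 138 and 151 in midkine 3 and 4, above each control, and 104 in midkine 5. Fpr1 did not pass without midkine 5 (limma, adjusted p = 0.0795). Fpr2, another formyl peptide receptor, overlapped between the groups, at 299.6 to 566 in control and 376 to 496 in midkine libraries. The calcium-dependent membrane repair list had 10 of 12 members tested, of which 3 rose without midkine 5 and 0 fell. Some related lists share genes. Of these 3, 1 is counted again in the list for phosphatidylserine below, and it lay below every control in midkine 5. Myof (myoferlin), a repair protein with calcium-binding C2 domains, had 722 to 999 and 1200.0 to 1693. Cytosolic S100 partners (12 tested) had 1 higher and 1 lower without midkine 5, and Cacybp, the partner of S100a6, had 629 to 707 and 501 to 633.

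In the list for exposure and binding of phosphatidylserine, the lipid that Anxa5 binds, 10 genes were tested. Without midkine 5, 3 of them rose and 0 fell, and in this and the next lists the shares over all genes were again 9.92% and 8.52%. Gas6, a bridge between that lipid and the TAM receptors, had 135 to 206 normalized counts in control and 239.7 to 601 in midkine libraries. Stab1, a receptor for it, had 589.8 to 748 and 862 to 896. Among other small EF-hand proteins (10 tested), 2 rose without midkine 5 and 0 fell, and Efhd2 had 1875 to 2289 and 3070.2 to 4639. For eicosanoid release, a pathway that Anxa1 restrains, 9 were tested, of which 2 rose without midkine 5 and 0 fell. Alox5, the 5-lipoxygenase, had 80.8 to 113 and 157 to 168. With all 6 libraries limma called 0 genes of any of these lists, and list medians of the log2 fold change ran from -0.17 (cytosolic S100 partners) to 0.38 (phosphatidylserine), beside -0.00 over all genes.

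**Figure D4:**
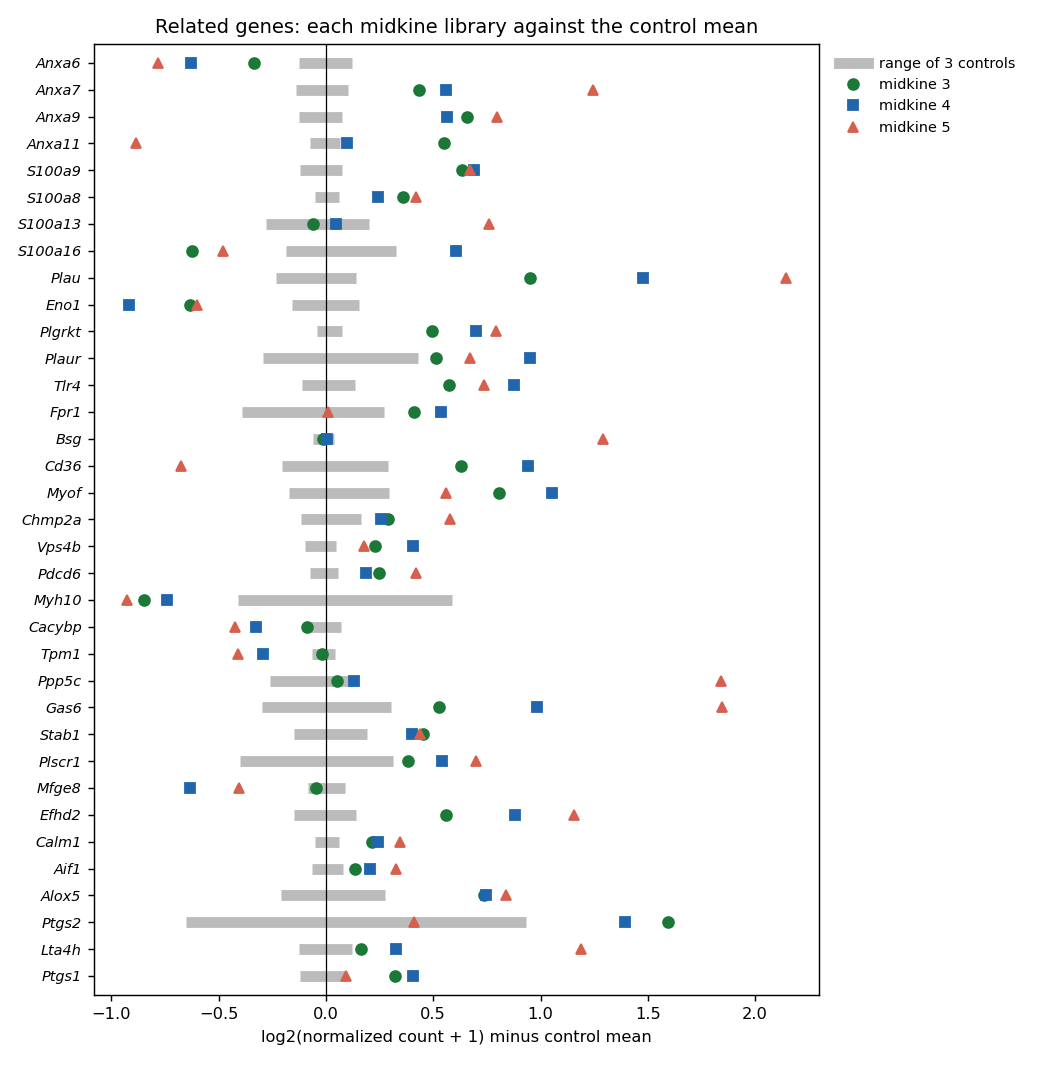
Difference of log2(normalized count + 1) from the control mean (horizontal axis) for each midkine library (markers) and up to 4 genes of each related list, chosen by smallest p; the grey band spans the 3 controls. Plau, Plgrkt, Tlr4, Myof and Efhd2 lie to the right of the controls in all 3 midkine libraries and Anxa6 to the left, while Anxa11 and Cd36 lie to the left in midkine 5 alone.

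Outside the 10, the genes with profiles most like that of S100a10 over the 6 libraries were Pacs2, Ubqln1, Nbeal2, Scand1 and Cdt1. Their mean absolute difference from S100a10 was 0.0215 to 0.0436 on the centred log2 scale, among 8912 genes with a mean of at least 50. Pacs2 had 277 to 328 normalized counts in control libraries, 282 and 318 in midkine 3 and 4 and 636 in midkine 5. For Anxa2 the most alike were Cox6c, Fbxw8, Brf2, Lrp10 and Mrpl43, with 0.0411 to 0.0454. These likenesses rest on 6 libraries, and each of the 10 named genes was at its highest in midkine 5.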

How the data were processed

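RNA of 6 libraries was measured by 3′ sequencing (QuantSeq FWD, per the labels' protocols). The authors deposited one signal value for each gene and library, a normalized count. The submitters' processing notes name TopHat2 2.0.10 with Bowtie 1.0.0 and the build GRCm38 (mm10), HTSeq, DESeq2, FastQC 0.11.0 and SAMtools 0.1.19. Strand setting, annotation and treatment of multi-mapping reads were not given. All values were whole multiples of 1 step per library (100% within 0.01 reads), which gave back the reads. The table held 0 further columns of samples.

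The main test was limma 3.58.1 in R 4.3.3 (trend) on log2(normalized count + 1), midkine minus control, for 13543 genes with a mean of at least 5, two-sided, with Benjamini-Hochberg adjustment over all of them and a threshold of 0.05. All 10 members passed that filter. Fold changes on this scale understate those of low genes. edgeR 4.0.16 and DESeq2 1.42.0 were run on the whole reads. Scripts were tested on simulated counts. Coordinates came from GENCODE M21 on GRCm38, promoters from RefSeq.

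The members and all lists were chosen with earlier results of these data known. Named were the 10 members, up to 4 measured genes with the smallest unadjusted p from each of 9 related lists, and the 5 genes nearest in profile to Anxa2 and to S100a10. Fpr2 was named as well, beside Fpr1. Marker lists numbered 10. Figures were drawn with matplotlib 3.10.9. One gene of a related list is not reported here. Marker sums were also taken without the 1 or 2 most abundant markers of each list, chosen after the values were seen.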

Additional observations from a re-analysis of the deposited data

How the results depend on the processing

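With all 6 libraries 0 of the 10 members passed in limma with another pseudocount, filter or scaling and in edgeR; 1 passed with DESeq2 (Anxa3) and 7 with array weights (6 higher and, for S100a4, 1 lower, beside 19.1% and 18.4% of all genes). Leaving out 1 library gave 0 to 6 members, the 6 only without midkine 5, and 6 with edgeR without midkine 5. Over all genes the count was 10 with pseudocount 5, 9 with no filter, 7 with TMM scaling, 16 with quantile normalization, 10 with edgeR, 684 with DESeq2, 5076 with array weights, 0 to 2497 leaving out 1 library (2497 without midkine 5) and 2508 with edgeR without midkine 5; with 0 calls in the main test, 2663 genes had an unadjusted p under 0.05. The cause was not tested. The direction of 7 members held in all 16 alternatives. S100a4, at 0.35 without midkine 4, turned to -0.0059 with quantile normalization, -0.33 with array weights, -0.0085 without control 2, -0.31 without midkine 5 and -0.31 with edgeR without midkine 5. S100a1 turned to -0.016 with quantile normalization, and S100a11 to -0.010. Leaving out 1 library, S100a1 ranged from -0.19 without midkine 3 to 0.31 without midkine 5 (-0.0081 without control 1, -0.020 without control 4, -0.044 without midkine 4), and S100a11 from -0.062 without midkine 3 to 0.43 without midkine 5 (-0.032 without midkine 4). No paired analysis was possible because the groups share only 1 replicate number. With 3 libraries per group, differences smaller than the intervals given were not detectable.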
